A study of Mus musculus with 32 samples.

Results

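The 10 genes described here are the immediate early genes Fos, Fosb, Jun, Junb, Egr1, Atf3, Ier3, Dusp1 and Zfp36, together with Maff, in the mouse distal colon. They were chosen by name, and each was read from the probe set (a group of short probes for a transcript) that carried its symbol in the platform annotation, taking the brighter one where a gene had several. All 10 were found among the 18193 genes of the arrays, and only Jun had 2 probe sets. RNA of whole distal colon was measured on 1 Affymetrix expression array for each of 32 mice. Treated mice, aged 6 to 8 weeks, received the carcinogen azoxymethane (AOM) at 10 mg/kg into the peritoneum, and 1 week later drank 2% dextran sodium sulfate (DSS), an agent that injures the colon lining, for 3 days before they were killed. The groups were 10 treated Myd88-/- mice, 6 untreated Myd88-/- mice, 10 treated wild-type (WT) mice and 6 untreated WT mice. All carried the C57 BL6NCr background, to which the Myd88-/- line had been backcrossed. Myd88 is the adaptor protein that passes on signals of most Toll-like receptors and of the IL-1 and IL-18 receptors. The knockout applied to the whole animal as far as the labels say, and the labels gave no age, protocol, batch or sex for the untreated mice. The sample records used here hold no batch or sex for the treated mice either. Treatment therefore cannot be told apart from other differences in handling.

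Immediate early genes are switched on within minutes of a stimulus such as a growth factor, a cytokine, wounding or stress, without the need for new protein. MAP kinases reach them through factors already present in the cell, among them serum response factor at CArG boxes and CREB-type factors at cyclic AMP response elements (CRE). Their products are transcription factors, such as the AP-1 dimers of Fos and Jun proteins, and brakes, such as the MAP kinase phosphatase Dusp1 and the RNA decay factor Zfp36. In the gut lining these genes are known to respond to injury. Maff is a small Maf protein, which has a DNA-binding leucine zipper and no activation domain, and which pairs with factors such as Nfe2l2 at antioxidant response elements.

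No promoter window was held for Egr1, which was also among the members called below. Promoters of 4 other members are shown, because Maff, Zfp36 and Junb were called in the comparisons below and Dusp1 was not. Each is the stretch of 250 bases before an annotated start site, read 5′ to 3′ on the gene's strand from RefSeq (GRCm38.p6). Capitals mark the CRE TGACGTCA, the EGR motif GCGNGGGCG, and the CArG box, all searched on both strands.
Maff, one of its annotated start sites, chr15:79347270-79347519, plus strand: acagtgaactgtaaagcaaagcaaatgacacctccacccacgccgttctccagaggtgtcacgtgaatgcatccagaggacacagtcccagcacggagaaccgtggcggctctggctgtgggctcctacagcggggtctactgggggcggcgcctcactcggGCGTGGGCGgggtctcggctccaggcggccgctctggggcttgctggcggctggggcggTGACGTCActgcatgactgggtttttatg
Zfp36, chr7:28379229-28379478, minus strand: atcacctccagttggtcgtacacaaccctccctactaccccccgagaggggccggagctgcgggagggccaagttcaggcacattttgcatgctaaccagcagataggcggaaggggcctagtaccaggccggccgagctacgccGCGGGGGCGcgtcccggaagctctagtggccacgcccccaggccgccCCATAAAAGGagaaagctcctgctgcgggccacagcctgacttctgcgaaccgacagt
Junb, chr8:84978749-84978998, minus strand: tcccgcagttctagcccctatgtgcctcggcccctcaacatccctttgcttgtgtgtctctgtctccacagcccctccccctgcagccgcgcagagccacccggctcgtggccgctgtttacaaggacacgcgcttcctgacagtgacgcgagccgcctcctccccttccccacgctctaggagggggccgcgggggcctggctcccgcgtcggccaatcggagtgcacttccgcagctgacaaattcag
Dusp1, chr17:26508473-26508722, minus strand: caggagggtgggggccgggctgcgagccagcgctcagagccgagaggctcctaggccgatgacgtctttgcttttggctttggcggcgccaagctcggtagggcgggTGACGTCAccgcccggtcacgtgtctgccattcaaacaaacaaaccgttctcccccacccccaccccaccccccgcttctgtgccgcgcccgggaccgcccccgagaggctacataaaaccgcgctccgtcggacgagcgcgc
The Maff window held an EGR match that began 88 bases before the start site and a CRE that began 29 bases before it. The Zfp36 window held an EGR match at 105 bases and a CArG box at 58 bases. The Dusp1 window held a CRE at 143 bases, so a CRE was found in a member that was called and in a member that was not. The Junb window held none of these motifs, although it held the shorter core TGACG. Among 32851 mouse promoter windows of the same length, 1.55% held the CRE, 4.7% the EGR motif, 1.47% a CArG box and 17.8% the core TGACG, which also lies inside every CRE. Windows were found for 9 of the 10 members, all but Egr1, with 11 start sites in all, 3 of them for Maff. Outside the printed windows, the only match to the CRE, the EGR motif or the CArG box was an EGR match in Fosb, 50 bases before the start site. The shorter core TGACG also lay in the windows of Fos, Fosb and Atf3 and of another Maff start site. The AP-1 motif TGANTCA was found in none of the 11 windows and in 6.75% of all windows. These are matches of letters and say nothing of what was bound.

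The arrays were checked against their labels through the knocked-out gene. Myd88 signal lay between 7.50 and 8.31 log2 units in treated Myd88-/- mice and between 8.26 and 8.61 in treated WT mice. In untreated mice it lay between 7.53 and 7.81 in Myd88-/- and between 8.23 and 8.51 in WT mice. The treated ranges thus touched, and the untreated ones did not. Markers of colonic epithelium, such as Epcam and Krt20, averaged 12.31 ± 0.14, 12.05 ± 0.063, 12.06 ± 0.17 and 12.08 ± 0.040 log2 units (SD) in treated Myd88-/-, untreated Myd88-/-, treated WT and untreated WT mice, near the top of the scale. Markers of squamous epithelium were highest in the treated WT mice numbered 1 and 2, with means of 11.87 and 10.32, and reached at most 8.79 on any Myd88-/- array. Whole tissue was measured, so more cells of a type and more RNA per cell cannot be told apart in any result below.

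Treated Myd88-/- repeats 3 and 4 stood apart in the genes described here. Repeat 3 was the highest of the 10 treated Myd88-/- mice in 7 members and repeat 4 in the other 3. Averaged over the members, repeat 3 lay 1.18 and repeat 4 lay 1.04 log2 units above the group mean, while repeats 7 and 9 lay -0.59 and -0.78 from it. The main differences of the members that involve treated Myd88-/- mice are given below with and without these 2 mice. Repeat 3 was also the highest of its group in the mean of markers for fibroblasts (11.91; group range 9.83 to 11.91), endothelium (7.89; 6.54 to 7.89), macrophages and monocytes (9.08; 7.27 to 9.08) and T cells (4.87; 3.77 to 4.87). Repeat 4 was highest in none of the marker lists, with 11.32 for fibroblasts, 7.43 for endothelium and 8.27 for macrophages and monocytes. Repeat 9, the lowest mouse in 4 members, had the highest mean of skeletal muscle markers of its group (10.09; 4.71 to 10.09). Repeat 7, the lowest mouse in 4 other members, had 6.11 for skeletal muscle and the highest neutrophil mean of the group (5.35; 4.03 to 5.35). The part of these cell types in the members' values was not tested.

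**Figure D1:**
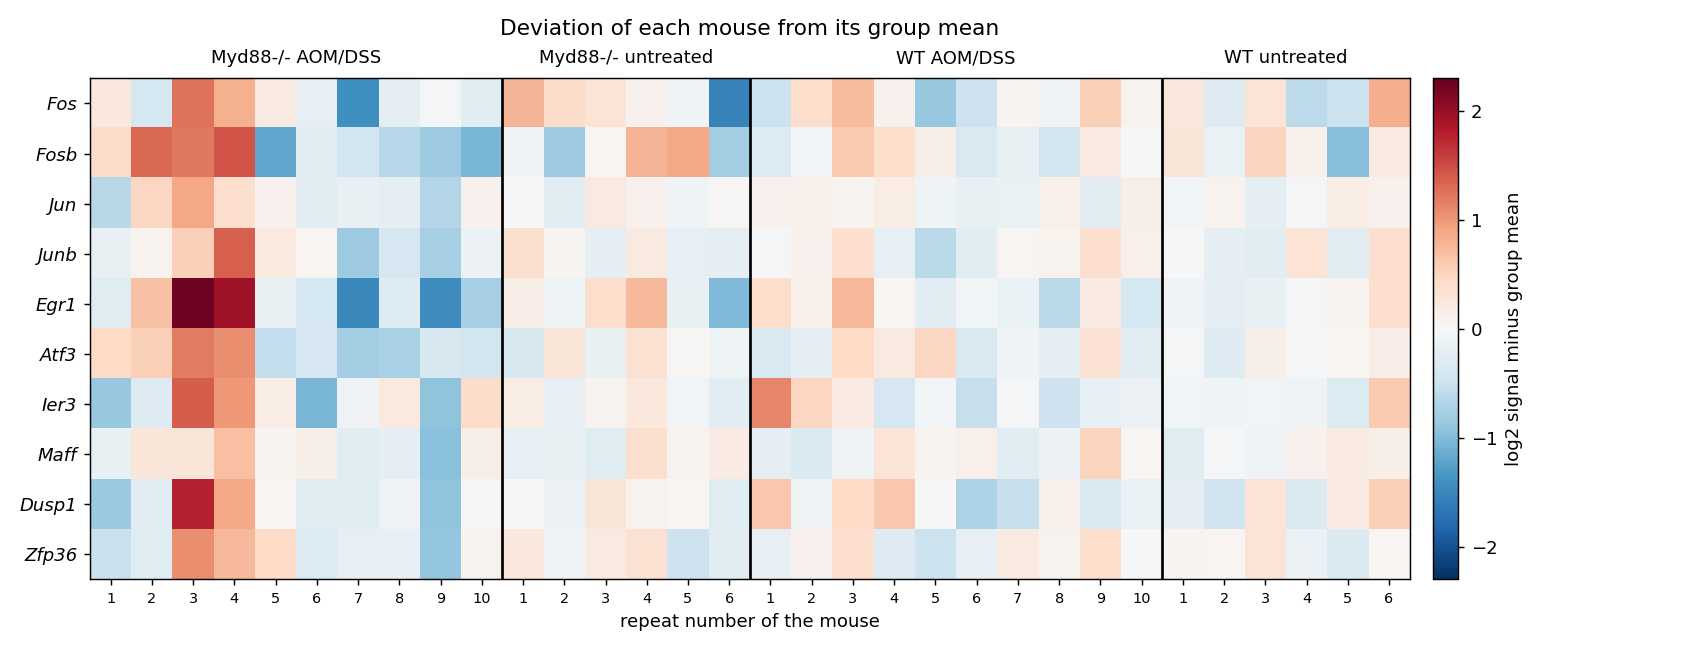
Log2 signal of each of the 10 genes minus the mean of the mouse's own group, with genes in rows, mice in columns by repeat number, and groups separated by black lines. Treated Myd88-/- repeats 3 and 4 are above their group mean in all 10 genes, and treated Myd88-/- repeats 7 and 9 are below it in all 10.

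The comparison of treated with untreated Myd88-/- mice asks what differed after AOM and DSS where Myd88 was missing. Egr1, Zfp36, Junb and Maff rose, by between 1.81-fold and 3.02-fold, and no member fell. These were 4 of the 10 members. Of all 18193 genes, 18.7% were called in this comparison (limma, p adjusted by Benjamini-Hochberg across every gene, threshold 0.05), and 8.69% were called as higher. At an unadjusted p under 0.05 there were 7 members, beside 31.2% of all genes. The median log2 difference of the members was 0.79, against 0 for all genes, and 0.51 without treated Myd88-/- repeats 3 and 4. The same 4 genes were called without those 2 mice.

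In WT mice the same treatment was followed by no called member, where 1.82% of all genes were called. At an unadjusted p under 0.05 there were 4 members, Egr1, Fos and Zfp36 with higher and Maff with lower signal in treated mice, beside 14.9% of all genes. By the exact permutation test there were 5, with Fosb added, beside 20.0% of all genes. The members' median log2 difference was 0.21. In 4 other settings 1 or 2 members passed in WT mice: Egr1 with only the compared groups fitted, with the repeat number as a block, and without treated Myd88-/- repeats 3 and 4, and Egr1 and Maff with array weights. Both treatment comparisons share no mice, and a difference in calls between them is not by itself a difference between genotypes.

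Between treated mice of the 2 genotypes, Junb and Maff were higher in Myd88-/- mice, by 1.84-fold and 1.80-fold, and no other member passed. In this comparison 12.8% of all genes were called, 6.24% as higher. All 10 members had a log2 difference above 0, with a median of 0.51, and 6 had an unadjusted p under 0.05, beside 26.0% of all genes. Without treated Myd88-/- repeats 3 and 4 the median was 0.23, with all 10 still above 0, and Junb and Maff were again the members called. Both genes were called under each of the 46 alternative settings.

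Between untreated mice no member was called, where 0.115% of all genes were. Maff was the only member with an unadjusted p under 0.05, beside 7.16% of all genes, and it was lower in untreated Myd88-/- mice. By the exact permutation test, Atf3 also had an unadjusted p under 0.05, beside 10.3% of all genes. The test of whether the treatment difference itself differed between genotypes called Maff alone among the members, and 0.0550% of all genes. The 10 genes called became 3 to 164 when single mice were left out, the most without treated Myd88-/- repeat 9. By p, Maff ranked 4 of the 10. Junb was the other member with an unadjusted p under 0.05 there, beside 11.7% of all genes.

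**Figure D2:**
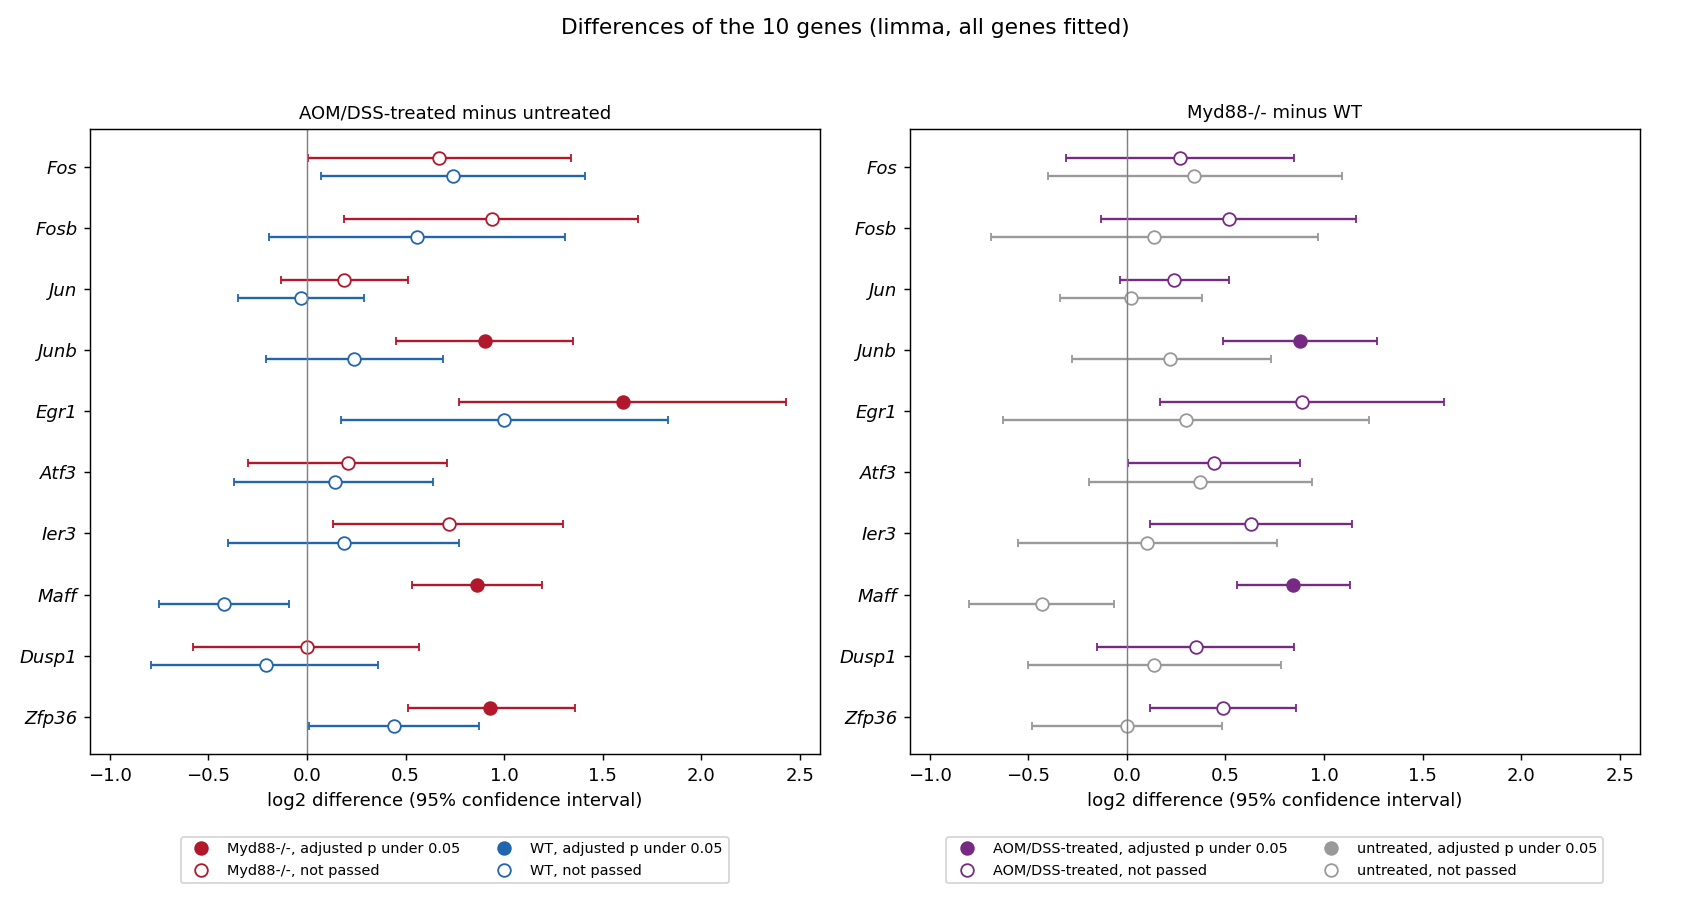
Log2 differences with 95% confidence intervals from limma, on the left treated minus untreated mice of each genotype and on the right Myd88-/- minus WT mice in each state. Filled points passed an adjusted p of 0.05: Junb, Egr1, Maff and Zfp36 in the Myd88-/- treatment comparison and Junb and Maff between treated genotypes, while the Maff points of WT mice and of untreated mice lie below 0.

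Maff was the only member for which the difference between the genotypes' treatment responses was called. Its signal in treated Myd88-/- mice was lowest at 6.44, with a median of 7.49 and a highest value of 8.09 log2 units, against 6.26, 6.35, 6.37, 6.61, 6.72 and 6.90 in the 6 untreated Myd88-/- mice by size. All but repeat 9 of the treated Myd88-/- mice lay above the highest untreated one. The log2 difference was 0.86 ± 0.16 (SE), with an adjusted p of 0.000477 in limma and an exact permutation p of 0.00150, two-sided. It was 0.74 (adjusted p = 0.00181) without repeats 3 and 4.

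In WT mice the Maff values ran the other way, short of a call. Treated WT mice had 6.21 at the lowest, a median of 6.53 and 7.07 at the highest, against a range of 6.69 to 7.17 with a median of 7.00 in untreated WT mice. Of the treated WT mice 8 of 10 lay below the lowest untreated one. The log2 difference was -0.42 ± 0.16, with an exact permutation p of 0.00524, and did not pass the adjustment over all genes (adjusted p = 0.198). Fitted beside the marker means of squamous epithelium and skeletal muscle it was -0.25 (adjusted p = 0.592), and squamous markers averaged 7.73 ± 2.37 in treated WT and 5.44 ± 0.82 in untreated WT mice (SD). The part of squamous tissue in the Maff signal was not tested beyond that fit.

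The group means of Maff were 7.39 ± 0.44 in treated Myd88-/-, 6.54 ± 0.25 in untreated Myd88-/-, 6.55 ± 0.26 in treated WT and 6.97 ± 0.18 in untreated WT mice (SD, n = 10, 6, 10 and 6). Treated Myd88-/- mice stood highest, and untreated WT mice next. Treated WT and untreated Myd88-/- mice lay at nearly the same level, though no test compared those groups with each other. Between treated mice, Myd88-/- was higher by 0.84 ± 0.14 (adjusted p = 0.000286; 0.72, adjusted p = 0.00127, without repeats 3 and 4), with 9 of 10 Myd88-/- mice above the highest WT mouse. Between untreated mice, Myd88-/- stood at -0.43 ± 0.18 relative to WT (unadjusted p = 0.0230, adjusted p = 0.635 in limma, exact permutation p = 0.0130), with 4 of 6 Myd88-/- mice below the lowest WT mouse.

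The Myd88-/- treatment difference of Maff exceeded that of WT mice by 1.28 ± 0.23 log2 units, a ratio of 2.43-fold (95% interval 1.75 to 3.36, adjusted p = 0.0223). It was 1.16 (adjusted p = 0.0317) without treated Myd88-/- repeats 3 and 4, and 1.21 (adjusted p = 0.0697) without treated WT repeats 1 and 2. Over 45 alternative settings the size ran from 1.14 to 1.38, and the call was lost in 7 of them, among them the values as deposited (1.20, adjusted p = 0.0572) and the removal of single untreated mice, untreated WT repeat 4 (1.26, adjusted p = 0.0619) or 5 (1.24, adjusted p = 0.0571) or untreated Myd88-/- repeat 1 (1.24, adjusted p = 0.0706), 2 (1.25, adjusted p = 0.0689) or 3 (1.22, adjusted p = 0.0509).

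**Figure D3:**
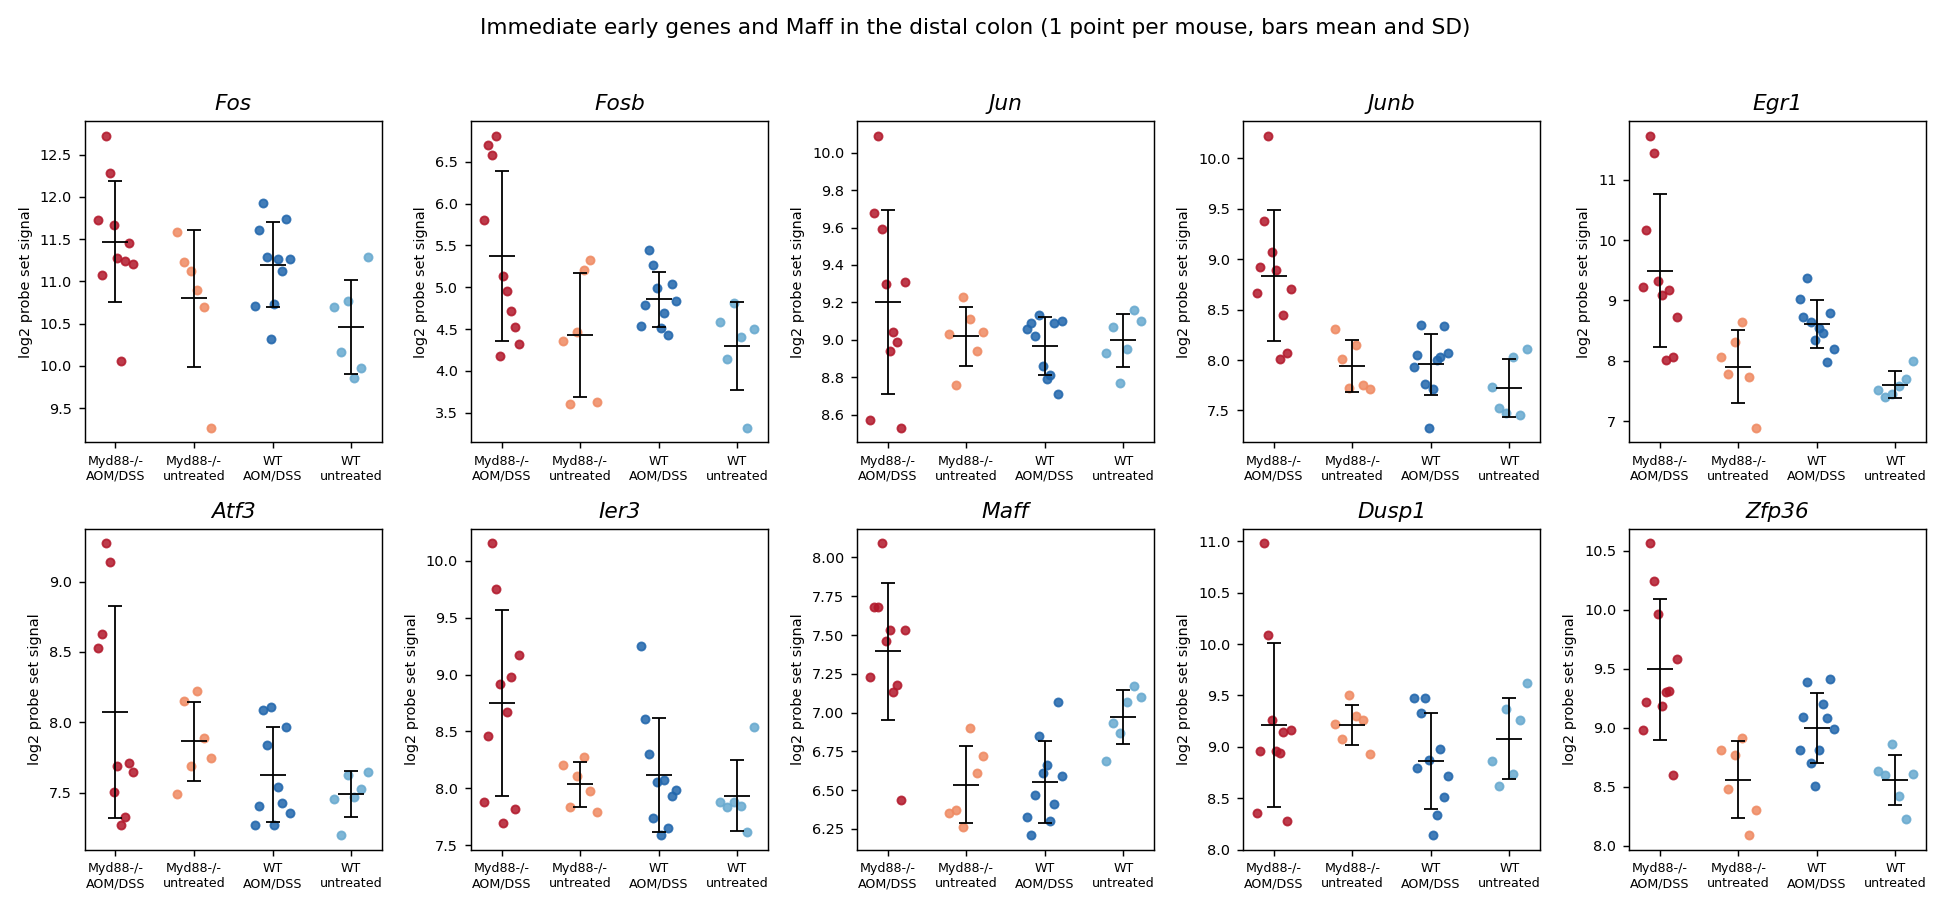
Log2 probe set signal of each gene in the distal colon, 1 point per mouse, with bars for the group mean and SD, in treated Myd88-/-, untreated Myd88-/-, treated WT and untreated WT mice. Maff is highest in treated Myd88-/- mice (6.44 to 8.09) and lies between 6.21 and 7.17 in the other groups, and the spread of most genes is widest in treated Myd88-/- mice.

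Among the AP-1 subunits, Junb, a Jun protein known to act both with and against Jun, was the one called. In treated Myd88-/- mice its signal ran from 8.01 over a median of 8.80 to 10.22, against 7.71, a median of 7.88 and 8.31 at the highest in untreated Myd88-/- mice. In treated WT mice it ran from 7.33 over 8.01 to 8.35, against 7.46, 7.62 and 8.11 in untreated WT mice. Of the treated Myd88-/- mice 8 of 10 lay above every untreated Myd88-/- mouse, and 8 of 10 above every treated WT mouse, while the 2 WT groups overlapped.

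Junb rose by 0.90 ± 0.22 log2 units in treated over untreated Myd88-/- mice (1.86-fold, adjusted p = 0.00454) and was 0.88 ± 0.19 above treated WT (adjusted p = 0.00309). These values were 0.66 (adjusted p = 0.00883) and 0.64 (adjusted p = 0.00715) without repeats 3 and 4. In WT mice its treatment difference was 0.24 ± 0.22 (adjusted p = 0.689). The difference between these responses was 0.66 ± 0.31 and did not pass (unadjusted p = 0.0436, adjusted p = 0.408; 0.42, adjusted p = 0.535, without repeats 3 and 4), so the data do not show that Junb responded differently in the genotypes.

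Fos, the partner that Jun proteins need for the strongest AP-1 dimers, had a similar treatment difference in each genotype and passed in neither. Its signal lay between 10.06 and 12.72 in treated Myd88-/- mice (median 11.36), against 9.27 to 11.58 in untreated Myd88-/- mice (median 11.01). It lay between 10.32 and 11.93 in treated WT mice (median 11.26), against 9.86 to 11.29 in untreated WT mice (median 10.43). The treatment differences were 0.67 ± 0.33 in Myd88-/- (adjusted p = 0.158) and 0.74 ± 0.33 in WT mice (adjusted p = 0.273), and the difference between them was -0.069, with a 95% interval of -1.01 to 0.88. The Myd88-/- difference was 0.41 (adjusted p = 0.425) without repeats 3 and 4.

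Fosb, a Fos relative also known for its truncated brake form, was dim and spread widely. Treated Myd88-/- mice ran from 4.18 over a median of 5.04 to 6.81, against 3.60, 4.41 and 5.33 in untreated Myd88-/- mice. Treated WT mice ran from 4.43 over 4.81 to 5.45, against 3.32, 4.46 and 4.81 in untreated WT mice, where 1 array was at the floor of the scale. The 4 treated Myd88-/- mice above all untreated ones were repeats 1 to 4, with 5.80, 6.70, 6.58 and 6.81. Its Myd88-/- treatment difference was 0.94 ± 0.37 (adjusted p = 0.0715), and that of WT mice was 0.56 ± 0.37 (adjusted p = 0.508). In Myd88-/- mice Fosb passed in 7 of 45 alternative limma fits, among them the repeat number as a block (1.22, adjusted p = 0.0204), and was 0.61 (adjusted p = 0.241) without repeats 3 and 4.

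Jun and Atf3, an AP-1 and ATF family factor known as a stress-induced repressor, gave no call in any comparison. Jun lay between 8.53 and 10.09 in treated Myd88-/- mice, against 8.76 to 9.23 in untreated Myd88-/- mice, and between 8.71 and 9.13 in treated WT mice, against 8.77 to 9.16 in untreated WT mice. The treated Myd88-/- mice thus lay on both sides of the other groups, 5 of 10 above and 2 of 10 below the untreated range. Its treatment differences were 0.19 ± 0.16 in Myd88-/- mice (adjusted p = 0.454; 0.029, adjusted p = 0.951, without repeats 3 and 4) and -0.031 ± 0.16 in WT mice (adjusted p = 0.991). The other probe set of Jun gave -0.14 ± 0.11 and -0.35 ± 0.11 (adjusted p = 0.493 and 0.160 over all probe sets), so the probe sets differed in sign in Myd88-/- mice.

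Atf3 had a median of 7.70 in treated Myd88-/- mice, with a range of 7.27 to 9.27, against 7.82 and a range of 7.49 to 8.22 in untreated Myd88-/- mice. Treated WT mice had a median of 7.48 and a range of 7.27 to 8.11, against 7.50 and 7.20 to 7.65 in untreated WT mice. The mean of treated Myd88-/- mice was the higher one and their median the lower one, since 4 of 10 lay above every untreated mouse and 2 of 10 below. The difference was 0.21 ± 0.25 (adjusted p = 0.629), and -0.075 (adjusted p = 0.881) without repeats 3 and 4.

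Egr1, a zinc finger factor that binds the EGR motif, had the largest treatment difference of the members in each genotype. Treated Myd88-/- mice ran from 8.02 over a median of 9.20 to 11.73, against 6.89, 7.92 and 8.64 in untreated Myd88-/- mice. Treated WT mice ran from 7.98 over 8.59 to 9.38, against 7.40, 7.55 and 8.00 in untreated WT mice. In Myd88-/- mice 8 of 10 treated values lay above every untreated one, and in WT mice 9 of 10.

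In Myd88-/- mice Egr1 rose by 1.60 ± 0.41 log2 units (3.02-fold, adjusted p = 0.00593, exact permutation p = 0.00400). It rose by 1.07 (adjusted p = 0.00852) without repeats 3 and 4, which stood at 11.73 and 11.45, and it did not pass with only the compared groups fitted (adjusted p = 0.0710). In WT mice the difference was 1.00 ± 0.41 (2.00-fold). It gave an exact permutation p of 0.000500, while the fit over all groups gave an adjusted p of 0.223, in which the spread of treated Myd88-/- mice (SD 1.27, against 0.41 in treated WT and 0.22 in untreated WT mice) enters the error. With only the WT groups fitted the adjusted p was 0.00620. The difference between the responses was 0.59 ± 0.57 (adjusted p = 0.744), and 0.070 without repeats 3 and 4.

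Of the genes that act as brakes, Zfp36 (tristetraprolin), which binds AU-rich elements and hastens the decay of cytokine RNAs, was called and the others were not. Its signal ran from 8.60 over a median of 9.30 to 10.56 in treated Myd88-/- mice, against 8.09, 8.62 and 8.91 in untreated Myd88-/- mice. It ran from 8.51 over 9.03 to 9.41 in treated WT mice, against 8.23, 8.60 and 8.86 in untreated WT mice. In 9 of 10 treated Myd88-/- mice it lay above every untreated one, and in 6 of 10 treated WT mice.

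Zfp36 rose by 0.93 ± 0.21 log2 units in treated over untreated Myd88-/- mice (1.91-fold, adjusted p = 0.00215), and by 0.71 (adjusted p = 0.00547) without repeats 3 and 4. In WT mice the difference was 0.44 ± 0.21 (adjusted p = 0.315, exact permutation p = 0.00674). Between treated genotypes it was 0.49 ± 0.18 (adjusted p = 0.0707), and 0.27 (adjusted p = 0.288) without repeats 3 and 4. Between untreated genotypes it was 0.00076 ± 0.23.

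Dusp1, the phosphatase that switches off p38 and JNK, showed no treatment difference that passed in either genotype. It lay between 8.28 and 10.98 in treated Myd88-/- mice (median 9.05), against 8.93 to 9.50 in untreated Myd88-/- mice (median 9.24). It lay between 8.14 and 9.48 in treated WT mice (median 8.83), against 8.62 to 9.62 in untreated WT mice (median 9.06). In each genotype the treated median was the lower one, and only repeats 3 and 4 of the treated Myd88-/- mice, with 10.98 and 10.09, exceeded the untreated Myd88-/- range. The Myd88-/- difference was -0.0024 ± 0.28 (95% interval -0.58 to 0.57), and -0.33 (adjusted p = 0.308) without these mice. The WT difference was -0.21 ± 0.28 (adjusted p = 0.811).

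Ier3, a short-lived protein known to modulate cell survival and ERK and NF-kB signals, lay between 7.70 and 10.15 in treated Myd88-/- mice (median 8.80), against 7.79 to 8.28 in untreated Myd88-/- mice (median 8.05). Treated WT mice lay between 7.59 and 9.25 (median 8.03), against 7.62 to 8.54 in untreated WT mice (median 7.86). Of the treated Myd88-/- mice 7 of 10 exceeded every untreated one. The Myd88-/- treatment difference of Ier3 was 0.72 ± 0.29 (adjusted p = 0.0812, exact permutation p = 0.0437). It passed in 6 of 46 alternative limma fits, among them median centring (0.80, adjusted p = 0.0410), and was 0.41 (adjusted p = 0.274) without repeats 3 and 4.

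The highest Ier3 values among treated WT mice were those of repeats 1 and 2, at 9.25 and 8.61, the mice with the highest squamous marker means of 11.87 and 10.32. Repeats 6 and 8, next in squamous markers at 8.82 and 8.67, had the lowest Ier3 values of the group, 7.59 and 7.65. The part of squamous tissue in the Ier3 signal was not tested beyond the fits given here. Between treated genotypes Ier3 gave 0.63 ± 0.25 (adjusted p = 0.0945) over all mice. Without treated WT repeats 1 and 2 it was higher in Myd88-/- mice by 0.83 (adjusted p = 0.0296), and in a fit that held the marker means of both tissues, squamous and muscle, by 0.83 (adjusted p = 0.0171). It was 0.33 (adjusted p = 0.364) without treated Myd88-/- repeats 3 and 4.

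The remaining comparisons between genotypes gave values without a call. Between treated mice, Egr1 was at 0.89 ± 0.35 (adjusted p = 0.0958), Fosb at 0.52 ± 0.32, Atf3 at 0.44 ± 0.21, Dusp1 at 0.35 ± 0.24, Fos at 0.27 ± 0.28 and Jun at 0.24 ± 0.13. Without treated Myd88-/- repeats 3 and 4, Egr1 stood at 0.37, Fosb at 0.18, Atf3 at 0.16, Jun at 0.081, Dusp1 at 0.017 and Fos at 0.016. Between untreated mice the members other than Maff lay between 0.00076 for Zfp36 and 0.37 for Atf3, with adjusted p from 0.848 to 1.00.

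All members but Fos had their widest spread among treated Myd88-/- mice, and Fos had an SD of 0.72 there, against 0.81 in untreated Myd88-/- mice. The median SD of the members was 0.73 log2 units there, against 0.32 for all genes of those arrays, and all 10 members exceeded the median SD of all genes. The members' median SD was 0.27 in untreated Myd88-/- (all genes 0.23), 0.34 in treated WT (all genes 0.24) and 0.25 in untreated WT mice (all genes 0.18). In these groups, in this order, 7, 9 and 7 members exceeded the median SD of all genes. In treated Myd88-/- mice other than repeats 3 and 4 the members' median SD was 0.46, against 0.30 for all genes. Egr1 had the widest spread of the members in treated Myd88-/- mice, with an SD of 1.27, and Maff the narrowest, with 0.44.

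Within groups the members went up and down together from mouse to mouse, and much of this rested on 2 mice. After each group's mean was removed, all 45 pairs of members had a Pearson's r above 0 over the 32 arrays, with a median of 0.52 and a range of 0.10 to 0.77. Without treated Myd88-/- repeats 3 and 4 the median was 0.28, the range -0.25 to 0.62, and 37 of 45 pairs were above 0. Values for pairs of other genes are not given here, so joint movement is not shown to be particular to the members.

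Fos was related to Junb (r = 0.65, Spearman's rho = 0.65), Egr1 (r = 0.65, rho = 0.53) and Zfp36 (r = 0.62, rho = 0.65), each with a permutation p of r that came to 0.000480 when adjusted over the 9 relations (0.000315, 0.00690 and 0.000315 for rho). These 3 kept r of 0.62, 0.55 and 0.68 without the 2 arrays whose Fos deviation from the group mean lay farthest from the median deviation, treated Myd88-/- repeat 7 and untreated Myd88-/- repeat 6. Without treated Myd88-/- repeats 3 and 4 they were 0.59, 0.50 and 0.46. Weaker relations that passed the adjustment were those with Atf3 (r = 0.48, rho = 0.38), Dusp1 (r = 0.47, rho = 0.39), Fosb (r = 0.42, rho = 0.44) and Ier3 (r = 0.37, rho = 0.39), with permutation p of r adjusted to 0.0122, 0.0137, 0.0236 and 0.0452. Those of Fos with Atf3, Dusp1, Fosb and Ier3 were 0.23, 0.19, 0.23 and 0.094 without repeats 3 and 4, each weaker than over all arrays. Over untreated arrays alone, which hold neither mouse, they were 0.15, 0.57, 0.37 and 0.66, and none passed the adjustment. There the r with Dusp1 and Ier3 was higher than over all arrays, and the r with Atf3 and Fosb lower. The permutations for r and rho exchanged deviations between groups of unlike spread. Egr1, for one, had an SD of 1.27 in treated Myd88-/- and 0.22 in untreated WT mice. No permutation within groups was run, so the p of these relations are approximate.

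The relations of Fos with Jun (r = 0.25, rho = 0.15, adjusted p = 0.191 for r) and with Maff (r = 0.10, rho = 0.014, adjusted p = 0.576 for r) did not pass the permutation test. Maff was thus the member with the lowest r with Fos between mice of a group. Among the 20 treated arrays alone Fos went with Junb at r = 0.76 (permutation p adjusted over the 9 relations 0.00189) and with Egr1 at 0.69 (adjusted p = 0.00369). Among the 12 untreated arrays alone no relation passed, with 0.47 for Junb and 0.68 for Egr1 (adjusted p = 0.187 and 0.115). Outside the members, the genes most like Fos by the same measure over 32 arrays were Ccnt1 (r = 0.70), Nufip2 (0.69), Zfp36l2 (0.68), Sertad3 (0.68) and Slc5a2 (0.68). They are given as a description, being the highest of all genes.

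**Figure D4:**
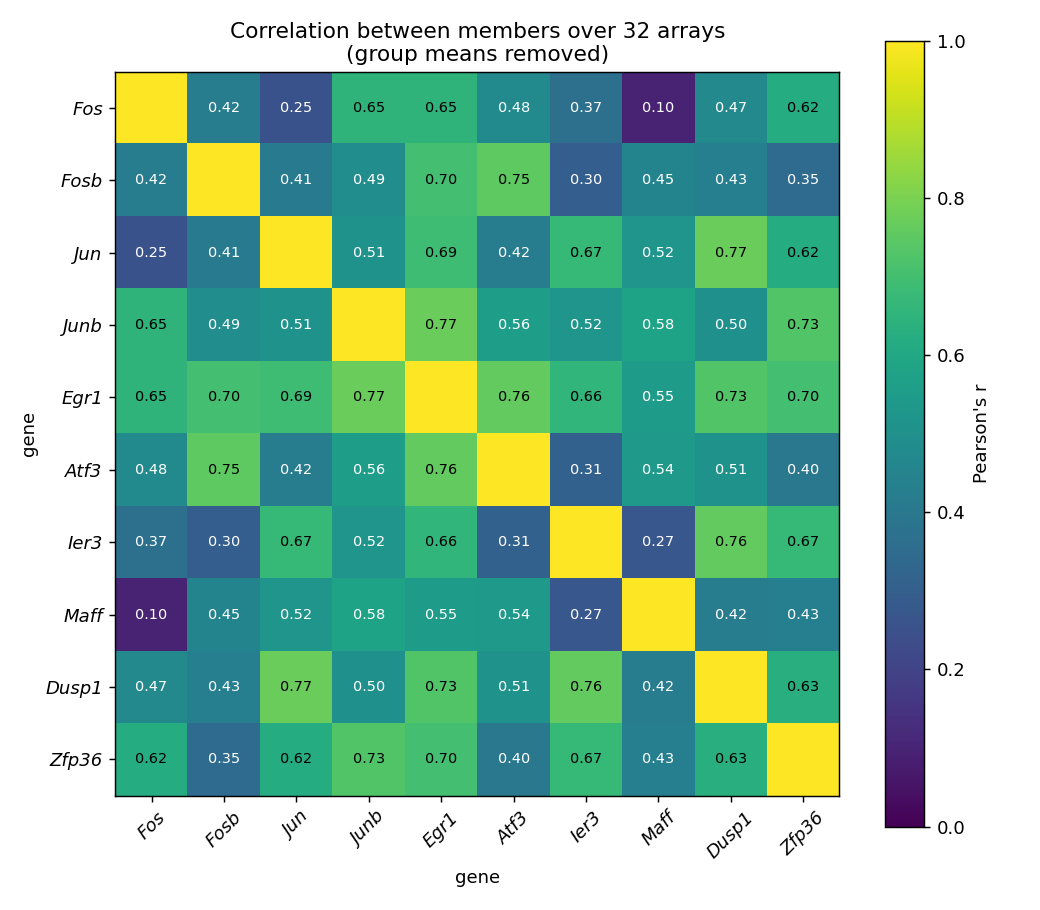
Pearson's r between the 10 genes over 32 arrays after each group's mean was subtracted, with both axes listing the genes and colour and number giving r. All pairs are above 0, from 0.10 for Fos with Maff to 0.77 for Junb with Egr1 and for Jun with Dusp1.

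Genes that work with the members were counted in lists chosen by function. Beside the counts of these lists, 18.7% of all genes were called in treated over untreated Myd88-/- mice, 8.69% as higher. In the WT comparison 1.82% of all genes were called, and 14.9% had an unadjusted p under 0.05. Between treated genotypes 12.8% were called, 6.24% as higher. Of 16 measured AP-1 and bZIP partners, 4 rose and 3 fell in treated over untreated Myd88-/- mice, with a list median of 0.078. Fosl1, a Fos relative known from wound edges and tumours, rose by 1.73 ± 0.27 log2 units (3.32-fold, adjusted p = 7.81e-05), with 5.62 ± 0.61 in treated and 3.89 ± 0.33 in untreated Myd88-/- mice (SD). Crem, a CRE-binding factor with an inducible repressor form, rose by 0.81 ± 0.18 (adjusted p = 0.00171), and Atf5 rose by 0.69 ± 0.16. Fosl2, the brightest that did not pass, was at 0.029 ± 0.087. In WT mice none of the 16 passed (limma; 2 at an unadjusted p under 0.05). Between treated genotypes 3 were higher and 2 lower in Myd88-/-, with Fosl1 at 0.72 ± 0.23 (adjusted p = 0.0400; 0.52, adjusted p = 0.141, without repeats 3 and 4) and Crem at 0.63 ± 0.15 (adjusted p = 0.00637).

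Of 18 measured Maf family members, their CNC partners and target genes, 3 rose and 1 fell in treated over untreated Myd88-/- mice, and 4 were higher and none lower in treated Myd88-/- than in treated WT mice (limma). Srxn1, the antioxidant enzyme sulfiredoxin, had 8.93 ± 0.44 in treated Myd88-/-, 8.15 ± 0.23 in untreated Myd88-/-, 8.24 ± 0.14 in treated WT and 8.21 ± 0.14 in untreated WT mice (SD). It rose by 0.78 ± 0.15 in Myd88-/- mice (adjusted p = 0.000438) and was 0.70 ± 0.13 above treated WT (adjusted p = 0.000612). Hmox1, heme oxygenase, rose by 1.24 ± 0.35 (adjusted p = 0.0135) in Myd88-/- mice, and by 1.03 with an adjusted p of 0.0522 without repeats 3 and 4. Nfe2l3, a CNC factor, fell by 1.32 ± 0.31 on the log2 scale. Gclm, a subunit of the enzyme that starts glutathione synthesis, fell by 0.47 ± 0.092 in treated over untreated WT mice (adjusted p = 0.00732) and was 0.36 ± 0.079 higher in treated Myd88-/- than in treated WT mice (adjusted p = 0.00310). Slc7a11, the cystine transporter, was 0.54 ± 0.17 higher in treated Myd88-/- than in treated WT mice (adjusted p = 0.0346). Nfe2l2, the brightest that did not pass, was at -0.079 ± 0.082 between treated and untreated Myd88-/- mice. The list medians were 0.059, -0.017 and 0.13 for the Myd88-/- response, the WT response and the treated genotypes, near the 0 of all genes.

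Other immediate early genes moved in part. Of 22 other immediate early transcription factors, 7 rose and 3 fell in treated over untreated Myd88-/- mice (list median 0.40), and none passed in WT mice (limma; 5 at an unadjusted p under 0.05). Nfil3 rose by 1.89 ± 0.46, Nr4a3, an orphan nuclear receptor, by 1.64 ± 0.46, and Egr2, a relative of Egr1, by 1.25 ± 0.33 log2 units, while Klf4, the brightest that did not pass, was at 0.017 ± 0.068. Nfil3 averaged 3.37 ± 0.11 (SD) in untreated Myd88-/- mice, near the floor of 3.32, which can understate its change. Nr4a3 and Egr2 were dim there too, at 4.10 ± 0.56 and 3.91 ± 0.57 (SD). Over 45 alternatives the rise of Nr4a3 ran from 0.66 to 1.91. Of 27 other immediate early proteins, 8 rose and 1 fell in Myd88-/- mice, among them Socs3, the brake on IL-6-type signals (2.31 ± 0.53, 4.95-fold, adjusted p = 0.00248), and Ptgs2, the inducible cyclooxygenase (1.33 ± 0.40). Without repeats 3 and 4 it was 5 of 27 that passed, with Socs3 at 1.89 (adjusted p = 0.0105) and Ptgs2 at 0.84 (adjusted p = 0.0408). Sgk1, a kinase of sodium transport, fell by 0.99 ± 0.22 in Myd88-/- and by 1.40 ± 0.22 in WT mice, and Gadd45a, a DNA damage-inducible gene, fell by 0.55 ± 0.13 in WT mice.

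Between treated genotypes, 4 of the 22 factors were higher and 1 lower in Myd88-/- mice. Nfil3 was at 1.17 ± 0.40 (adjusted p = 0.0490) and Nr4a2 at 0.87 ± 0.27 (adjusted p = 0.0326), which without treated Myd88-/- repeats 3 and 4 came to 0.59 (adjusted p = 0.197) and 0.51 (adjusted p = 0.139). Id2, an inhibitor of helix-loop-helix factors, was lower, at -0.68 ± 0.11 (adjusted p = 0.000203). Of the 27 proteins 4 were higher and 1 lower, with Ptgs2 at 1.12 ± 0.35 (adjusted p = 0.0303), and at 0.63 (adjusted p = 0.103) without those mice. The stress gene Gadd45g was at 0.62 ± 0.21 (adjusted p = 0.0441) and Ier5l at 0.57 ± 0.18 (adjusted p = 0.0393).

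Of 16 other MAP kinase phosphatases and feedback genes, 3 rose and 1 fell in treated over untreated Myd88-/- mice. Dusp6, the phosphatase of ERK, rose by 0.92 ± 0.22 (adjusted p = 0.00334), Dusp10 by 0.76 ± 0.16 and Dusp4 by 0.64 ± 0.21, where Dusp1 itself did not pass. Without repeats 3 and 4, Dusp6 rose by 0.66 (adjusted p = 0.00700). Between treated genotypes Dusp6 and Dusp3 were higher in Myd88-/- mice, by 0.59 ± 0.19 (adjusted p = 0.0380) and 0.40 ± 0.13 (adjusted p = 0.0384), and none of the 16 passed without repeats 3 and 4. Of 26 measured genes of the MAP kinase cascade itself 3 rose and 1 fell in Myd88-/- mice, a share near the 18.7% of all genes. At an unadjusted p under 0.05 in limma there were 12 of the 26, beside 31.2% of all genes. Those called included the kinase Map2k4 (0.39 ± 0.077, adjusted p = 0.000726) and, lower, the serum response factor partner Mrtfb (-0.49 ± 0.092, adjusted p = 0.000458). Between treated genotypes 3 of the 26 were higher and 4 lower in Myd88-/- mice, where 12.8% of all genes were called. Map2k3, which activates p38, was at 0.42 ± 0.082 (adjusted p = 0.00114), Map2k2, which activates ERK, at 0.42 ± 0.12 (adjusted p = 0.0153) and Map3k5, a stress-activated kinase, at -0.39 ± 0.10 (adjusted p = 0.00908).

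Around Zfp36, the 13 measured relatives and decay partners held 2 that fell and none that rose in treated over untreated Myd88-/- mice (limma). This share is near the 18.7% of all genes. At an unadjusted p under 0.05 there were 3 of the 13, beside 31.2% of all genes. The 2 that fell were the deadenylases Cnot7 (-0.44 ± 0.094, adjusted p = 0.00151) and Cnot8 (-0.27 ± 0.074, adjusted p = 0.0102). Of 15 measured short-lived RNAs known as Zfp36 targets 4 rose and 1 fell, with a list median of 0.52. The chemokine gene Cxcl2 rose by 1.33 ± 0.38 (adjusted p = 0.0140), against 1.07 (adjusted p = 0.0460) without repeats 3 and 4. Ccl3 was at the floor of 3.32 on every untreated array, so that its value in treated Myd88-/- mice, 4.14 ± 0.86 (SD), gives only a lower bound of the change (adjusted p = 0.0215, and 0.0673 without repeats 3 and 4). Plaur, the urokinase receptor, was 0.74 ± 0.18 higher in treated Myd88-/- than in treated WT mice (adjusted p = 0.00580), and 0.55 (adjusted p = 0.0259) without those mice.

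Stress lists stood beside these. Of 16 integrated stress response genes that share regulation with Atf3, 5 rose and none fell in treated over untreated Myd88-/- mice (limma), Nupr1 by 1.13 ± 0.22 (adjusted p = 0.000570), Chac1 by 0.79 ± 0.22 and Psat1 by 0.72 ± 0.22. In WT mice the chaperone gene Hspa5 rose by 0.52 ± 0.13 and Herpud1 fell by 0.49 ± 0.11. Of 9 measured heat shock genes 3 rose in Myd88-/- mice, Hspa1b by 0.78 ± 0.25, Bag3 by 0.51 ± 0.13 and Hsph1 by 0.48 ± 0.14, and Hsph1 rose in WT mice by 0.63 ± 0.14 (adjusted p = 0.0146). Between treated genotypes Asns, asparagine synthetase, was higher in Myd88-/- mice by 0.55 ± 0.14 (adjusted p = 0.00743). Hspa8 was lower in treated Myd88-/- than in treated WT mice, at -0.23 ± 0.050 (adjusted p = 0.00291).

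Markers of cell types were counted in the same comparison of treated with untreated Myd88-/- mice, where 18.7% of all genes were called. Of 12 colonic epithelium markers 7 rose, of 7 endothelium markers 3 rose, and of 6 B and plasma cell markers 3 fell. A single marker rose of the 7 for fibroblasts, the 9 for macrophages and monocytes, the 8 for neutrophils and the 6 for T cells. These shares lie below the 18.7% of all genes called in either direction and above the 8.69% called as higher. In limma 0 of 9 smooth muscle, 0 of 13 squamous epithelium and 0 of 10 skeletal muscle markers passed, and 3, 0 and 0 of them had an unadjusted p under 0.05. The macrophage and monocyte mean ranged from 7.27 to 9.08 in treated and from 7.51 to 8.01 in untreated Myd88-/- mice, and from 7.82 to 8.56 in treated and from 7.46 to 8.02 in untreated WT mice. The neutrophil mean ranged from 4.03 to 5.35 in treated and from 3.86 to 4.23 in untreated Myd88-/- mice, and from 3.98 to 5.30 in treated and from 3.85 to 4.37 in untreated WT mice. The signal of 3′ minus that of 5′ control probe sets, a sign of RNA integrity, averaged -0.021 ± 0.036 in treated Myd88-/-, 0.014 ± 0.031 in untreated Myd88-/-, -0.0011 ± 0.031 in treated WT and 0.040 ± 0.040 in untreated WT mice (SD). The part of cell makeup in the members' differences was not tested. In a fit that took this sign of integrity into account, Egr1, Fosb, Junb, Maff and Zfp36 passed in Myd88-/- mice.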

How the data were processed

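The authors deposited log2 probe set signals for 45101 probe sets on 32 arrays, per the file headers and labels. How probes were summarised is not given in the sources used here. No signal was below 3.322, and 18.7% to 23.9% of an array's probe sets stood at that floor. The floor hides or understates changes of genes that stand at it, such as Ccl3. Among the members only Fosb met it, on 1 untreated WT array. The deposited log2 values were quantile normalized. Of the probe sets, 34958 carried a single symbol in the platform annotation, 932 several and 9211 none. The brightest with 1 symbol stood for a gene, which gave 18193 genes.

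The 32 arrays entered a linear model with a mean for each of the 4 groups (limma 3.58.1 under R 4.3.3; 28 residual and 1.10 prior degrees of freedom). Tests were two-sided, with Benjamini-Hochberg adjustment over all genes and calls at an adjusted p under 0.05. Values after ± are standard errors unless given as SD. Single genes were also tested by permutation of mice, exactly, or with 100000 resamples for 10 against 10 mice. The pipeline was tested on simulated data. Depth is not defined for arrays, and the number of mice limits the precision. Mice were counted as replicates by the titles, and no label made the repeat numbers pairs.

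The members and lists were chosen with earlier results of these data known. In every comparison all 10 members were named. Of each other list up to 3 called genes of largest change and the brightest not called were eligible for naming, and the 5 genes most like Fos were named. Genes of a list without a usable named probe set were not analysed here. The alternatives are those of the closing section. The fit without treated Myd88-/- repeats 3 and 4 and that with Xist as covariate were added after seeing the data.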

Additional observations from a re-analysis of the deposited data

Results flagged for a closer look

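The treatment difference of Maff was 1.28 log2 units larger in Myd88-/- than in WT mice, by a test of the difference itself. It was 0.86 ± 0.16 in Myd88-/- and -0.42 ± 0.16 in WT mice, and the WT difference did not pass by itself.

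Ier3 in untreated WT repeat 6 stood at 8.54, away from the other 5 untreated WT mice, at 7.62 to 7.88. Its gap to the nearest mouse was 0.71 of the range of its group. By a rule on that share it was the only mouse flagged in 40 sets of a gene and a group, where chance flags about 1 in 20. In log2 units other mice lay farther from their group, such as untreated Myd88-/- repeat 6 in Fos (9.27, or -1.53 from its group mean).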

How the results depend on the processing

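The members called in treated over untreated Myd88-/- mice numbered 3 to 6 over all 46 alternatives, against 4. They numbered 4 to 6 when a single mouse was left out, and 3 with only the compared groups fitted, where Egr1 did not pass. Between treated genotypes they numbered 2 to 5 with a mouse left out, against 2, with the highest counts without treated Myd88-/- repeat 1 (4) and repeat 9 (5). In treated over untreated WT mice there were 0 of 10 in limma and 0 to 0 with a mouse left out. There was 1 with the compared groups only, 1 with the replicate block, 2 with array weights and 1 without treated Myd88-/- repeats 3 and 4. Between untreated genotypes there were 0 of 10 under all alternatives. The test of the difference between responses called 1 member, with 0 to 1 when a mouse was left out, 0 for the values as deposited and 0 without treated WT repeats 1 and 2. The cause of these changes was not tested.

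Among the other values, Hspa8 reversed to -0.25 in Myd88-/- mice in the values as deposited (adjusted p = 0.0301). Over untreated arrays only, the correlation of Fos with Jun was -0.12 and that of Fos with Maff -0.47, against values above 0 over all arrays.

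Same-numbered mice correlated between -0.17 and 0.34 in their deviations. Whether the repeat number goes with a batch or an order of handling was not tested. With the replicate block, 393 genes were called in WT mice against 332, and 3 against 10 in the test of the difference between responses. The block also added Fosb to the members called in Myd88-/- mice (5 against 4). Counts of all genes moved more elsewhere. With a mouse left out, the WT response gave 165 to 445, with 202 genes without treated WT repeat 7 and 165 to 203 without each of the 6 untreated WT mice in turn, and the difference between responses gave 3 to 164, with 18 without treated WT repeat 9, 36 without treated Myd88-/- repeat 6 and 164 without treated Myd88-/- repeat 9. The WT response gave 75 with the 3′/5′ covariate, 212 with median centring, 888 with the compared groups only and 1458 with array weights, against 332. The Myd88-/- response gave 1918 with the compared groups only, against 3404, and the difference between responses 258 with array weights. Median centring raised the share of calls that were higher to 65.8%, against 46.4%, in the Myd88-/- response, and to 74.6%, against 48.7%, between treated genotypes.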
